A study of Homo sapiens with 6 samples.

Results

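Peroxisome genes are the 35 human genes described here, taken as a named list of peroxins, the proteins that build the organelle, and of enzymes and transporters that work inside it or in its membrane. All 35 were found among the 58721 genes of the deposited count table, in all 6 libraries, and all 35 passed the filter on low counts that left 20713 tested genes. The cells were A549, an established human lung adenocarcinoma line, grown in DMEM with serum. As labelled, 3 libraries are of cells that overexpress R98W, a form of KAT8 with an amino acid substitution, and the other 3 of cells that overexpress the wild-type form (WT), which the KAT8 level of 1 library labelled WT goes against. KAT8, also called MOF, is a lysine acetyltransferase known for acetylating histone H4. Polyadenylated RNA was sequenced, and the submitters' title for the series places the mutation in the Tudor-knot domain of KAT8 and concerns contact with nucleosomes and histone acetylation. The labels give both groups an overexpressed KAT8 without naming the vector or promoter, and no library is labelled as coming from cells without one.

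The totals were 102450786, 101792328 and 108742650 counts in R98W replicates 1 to 3, and 97185632, 110152936 and 90007121 counts in WT replicates 1 to 3. Levels are CPM, counts relative to library totals scaled by the trimmed mean of M-values (TMM). The TMM factors were 0.959, 0.951 and 0.971 in R98W replicates 1 to 3 and 1.025, 1.044 and 1.055 in WT replicates 1 to 3. Every R98W factor was below every WT factor, and a lower factor raises CPM, so small differences between the groups depend on this scaling. KAT8 itself stood at 166, 196 and 236 CPM in the R98W libraries, against 12.2, 195 and 184 CPM in the libraries labelled WT. The library labelled WT replicate 1 therefore held 6.43% of the mean of the other two WT libraries, which goes against its label, and each member that loses or gains its call without that library is given both ways. KAT8 had a log2 fold change of R98W over WT of 0.61 (SE 0.48), with an adjusted p of 0.362 in edgeR's quasi-likelihood test. Whether replicates were separate cultures is not in the labels, so the p-values reflect the spread among these 6 libraries alone, and that spread may be technical. Summed over 6 epithelial keratins and adhesion genes, levels were 7979 to 8603 CPM in R98W and 8587 to 8776 CPM in WT libraries. EPCAM was lower in R98W and KRT19 higher, with log2 fold changes of -0.86 and 0.48, both past the threshold. The 4 leukocyte markers summed to 0.173 to 0.227 CPM in R98W and 0.179 to 0.281 CPM in WT libraries, with CD3E at 0 in every library. The 3 endothelial markers summed to 0.214 to 0.362 CPM in R98W and 0.392 to 0.779 CPM in WT libraries. The 5 fibroblast markers summed to 11.6 to 13.1 CPM in R98W and 10.5 to 14.6 CPM in WT libraries. Nearly all of this was COL1A1, at 11.5 to 12.7 CPM in R98W and 10.0 to 14.2 CPM in WT libraries. The highest value of any other fibroblast marker was 0.330 CPM, for LUM in WT replicate 2. The 3 erythroid markers summed to 0.279 to 0.853 CPM in R98W and 0.171 to 0.348 CPM in WT libraries. Of the erythroid markers, HBA1 was higher in R98W, with a log2 fold change of 2.12 (edgeR adjusted p = 0.00485), at 0.306, 0.176 and 0.568 CPM in R98W and 0.0502, 0.113 and 0.0737 CPM in WT libraries. In bulk libraries, fewer cells of a type and less RNA per cell cannot be told apart.

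Peroxisomes are small organelles bounded by a single membrane. They import their enzymes folded from the cytosol, shorten very-long-chain and branched fatty acids by β-oxidation and α-oxidation, begin the synthesis of ether lipids such as plasmalogens, and break down the hydrogen peroxide that their oxidases make. Loss of peroxins causes the Zellweger spectrum of disorders, and lung epithelial cells that make surfactant are known to be rich in peroxisomes.

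The promoters below are shown because they are the members' promoters with 3 or more copies of CCAAT, the motif that nuclear factor Y binds, and because the genes behind them differed in direction. Each is the stretch upstream of the gene within a window of 250 bases before to 50 after the start annotated by RefSeq on GRCh38.p14, printed 5′ to 3′ on the gene's strand. Capitals mark CCAAT or its complement ATTGG and, in ACOT8, the ETS core CCGGAAG or its complement CTTCCGG. The stretches are chr11:34438684-34438924 on the plus strand for CAT, chr20:33720320-33720560 on the minus strand for PXMP4, chr20:45857407-45857616 on the minus strand for ACOT8 and chr11:13668418-13668667 on the plus strand for FAR1.
CAT: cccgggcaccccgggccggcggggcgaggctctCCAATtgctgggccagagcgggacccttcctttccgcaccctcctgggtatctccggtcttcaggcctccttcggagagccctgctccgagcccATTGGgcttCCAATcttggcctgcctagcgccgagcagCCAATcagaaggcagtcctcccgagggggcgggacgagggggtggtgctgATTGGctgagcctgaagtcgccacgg
PXMP4: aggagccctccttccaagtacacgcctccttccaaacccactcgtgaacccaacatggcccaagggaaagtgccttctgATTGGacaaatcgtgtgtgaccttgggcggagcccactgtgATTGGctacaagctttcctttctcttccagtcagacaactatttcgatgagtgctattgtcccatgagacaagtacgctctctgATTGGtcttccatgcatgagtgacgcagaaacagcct
ACOT8: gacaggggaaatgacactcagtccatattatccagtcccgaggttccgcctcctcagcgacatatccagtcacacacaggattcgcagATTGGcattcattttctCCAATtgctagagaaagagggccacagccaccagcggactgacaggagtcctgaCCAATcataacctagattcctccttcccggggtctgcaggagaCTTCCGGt
FAR1: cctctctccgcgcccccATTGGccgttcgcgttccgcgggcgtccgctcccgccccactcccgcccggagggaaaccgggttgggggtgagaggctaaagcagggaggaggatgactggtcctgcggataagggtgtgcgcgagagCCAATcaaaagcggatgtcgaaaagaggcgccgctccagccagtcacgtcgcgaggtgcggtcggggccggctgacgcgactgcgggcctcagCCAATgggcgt
CAT, which was higher in R98W, holds 5 copies, and PXMP4 and ACOT8, which were both lower, hold 3 each, as does FAR1, which did not pass the test.

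In R98W against WT libraries, the peroxisome genes moved in both directions. Of the 35 members, 7 were higher and 13 lower at an adjusted p under 0.05 in edgeR's quasi-likelihood test, adjusted over all 20713 tested genes by the Benjamini-Hochberg method. Over all tested genes 34.8% passed, 16.2% as higher and 18.5% as lower, and among protein-coding genes 43.3% passed, while 57.1% of the members did. The higher members were ABCD3, AMACR, PEX6, PECR, ECH1, PHYH and CAT. The lower members were ACOX3, PXMP4, ACOT8, PEX11A, PEX7, PXMP2, PEX3, HSD17B4, PEX10, PEX5, ABCD4, LONP2 and PEX26. The changes were small: the called members had log2 fold changes of 0.22 to 0.65 in size, with a median of 0.39, where all called genes had a median of 0.44, and no member reached a 2-fold change. The median log2 fold change was -0.08 over the members and -0.0047 over all tested genes. In 24 members the libraries of the groups did not overlap, 9 with every R98W library above and 15 with every R98W library below, against 45.6% of all tested genes, 21.3% above and 24.2% below. All 20 called members were among these 24, and the other 4 were PEX13 and PEX2 above and SCP2 and PEX11G below. Summed over the 35 members, R98W replicates 1 to 3 had 1795, 1767 and 1687 CPM. WT replicates 1 to 3 had 1689, 1686 and 1703 CPM, so on this scale the groups overlapped. The R98W mean was 1.03 times the WT mean, a difference whose direction depends on the TMM factors given above. The lower members were the more numerous, while the higher ones included some of the most abundant.

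**Figure D1:**
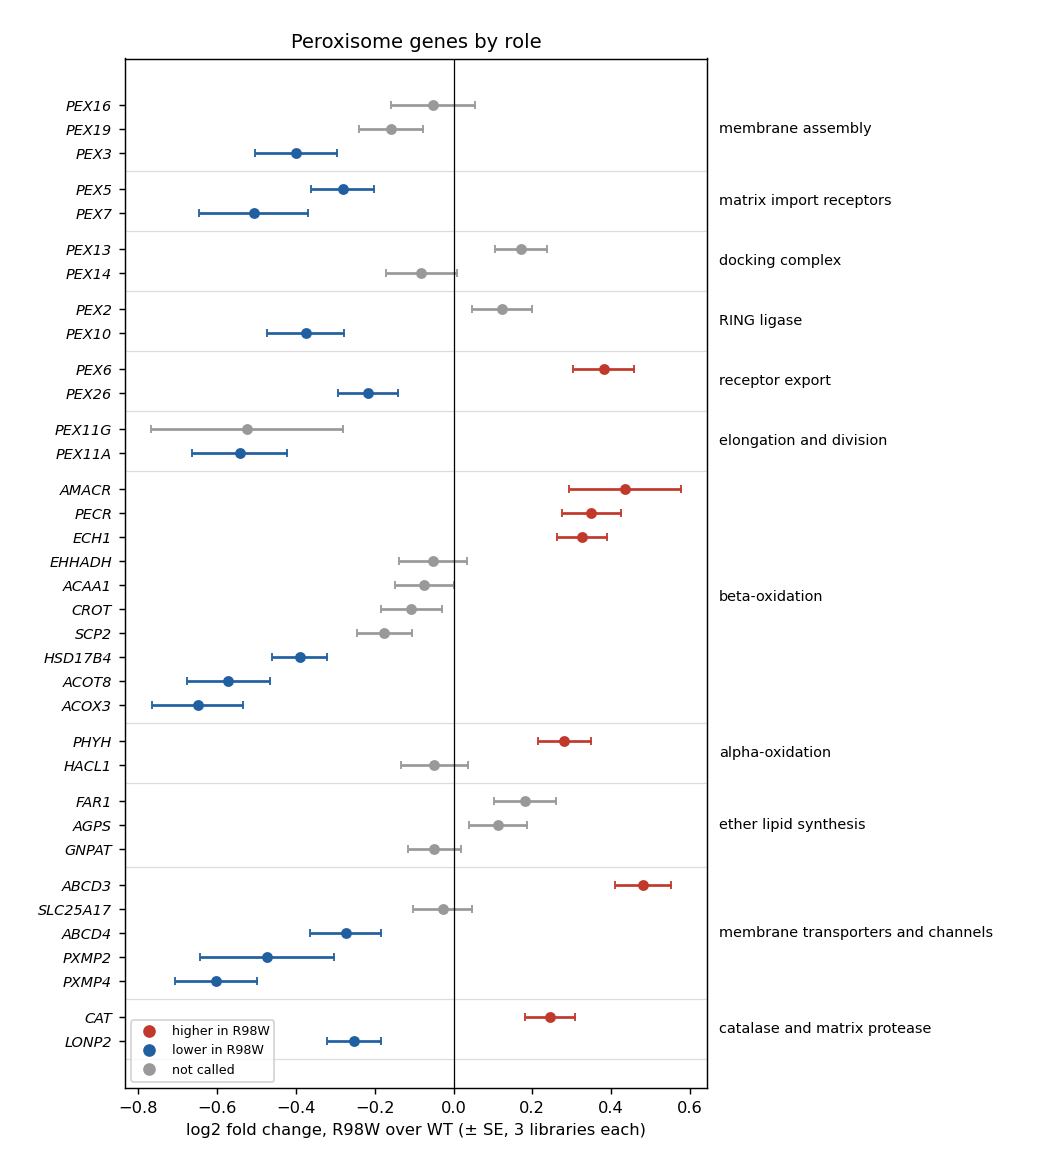
Log2 fold change of R98W over WT for each of the 35 members, grouped by role, with bars of ± SE from the edgeR fit over 3 libraries in each group. The 7 higher members (red) lie right of 0 and the 13 lower ones (blue) left of it, with grey for members that did not pass an adjusted p of 0.05.

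The machinery that places membrane proteins and founds new peroxisomes held 1 lower member. PEX3, the membrane anchor for the chaperone that delivers peroxisomal membrane proteins, stood at 8.07, 8.51 and 7.15 CPM in R98W replicates 1 to 3, against 10.4, 9.98 and 10.9 CPM in WT replicates 1 to 3. All 3 R98W libraries were below all WT libraries, with means of 7.91 ± 0.69 CPM in R98W and 10.4 ± 0.47 CPM in WT (SD, n = 3 each) and a log2 fold change of -0.40 (standard error, SE, 0.10 and edgeR adjusted p = 0.00539). Its partner PEX19, that chaperone, had a log2 fold change of -0.16 (SE 0.08 and edgeR adjusted p = 0.145), and without the library labelled WT replicate 1 it passed the threshold, with an adjusted p of 0.0325. PEX16, a membrane protein that recruits PEX3, had a log2 fold change of -0.05 with a 95% interval of -0.27 to 0.17.

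Both receptors that carry matrix enzymes into the organelle were lower in R98W. PEX5, the receptor for enzymes with the C-terminal targeting signal, had 37.5, 31.2 and 33.6 CPM in R98W libraries and 39.5, 44.5 and 40.2 CPM in WT libraries. The groups did not overlap, though the highest R98W library came close to the lowest WT library, and the log2 fold change was -0.28 (SE 0.08 and edgeR adjusted p = 0.01004). PEX7, the receptor for the N-terminal signal carried by few enzymes, AGPS and PHYH among them, had 6.18, 4.26 and 5.30 CPM in R98W and 7.15, 6.70 and 8.53 CPM in WT libraries. Its log2 fold change was -0.51 (SE 0.14 and edgeR adjusted p = 0.00758), and the gap between the groups was small against the spread within them. Without R98W replicate 2, the lowest of the R98W libraries for both receptors, the edgeR adjusted p was 0.0783 for PEX5 and 0.0588 for PEX7, and without WT replicate 3 it was 0.0638 for PEX7. The summed level of the pair was 39.3 ± 4.13 CPM in R98W and 48.9 ± 2.27 CPM in WT (SD, n = 3 each).

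The docking complex at the membrane, where loaded receptors arrive, held no called member. PEX13 had all 3 R98W libraries, at 55.5 to 58.1 CPM, above the WT libraries, at 48.7 to 52.2 CPM, with a log2 fold change of 0.17 and an edgeR adjusted p of 0.0518, just outside the threshold. PEX14, with which PEX13 forms the docking site, had a log2 fold change of -0.08 (SE 0.09 and edgeR adjusted p = 0.532).

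The RING ubiquitin ligases, which mark PEX5 for its return to the cytosol, were split. PEX10 had 8.54, 7.85 and 8.51 CPM in R98W and 11.0, 10.5 and 10.9 CPM in WT libraries. Every R98W library lay below every WT library with little spread within a group, and the log2 fold change was -0.38 (SE 0.10 and edgeR adjusted p = 0.00554). PEX10 shares 39.1% of its exon bases with RER1 on the other strand, and since the strand setting of the counting is not given, reads of the pair cannot be told apart. PEX2 had a log2 fold change of 0.12 (SE 0.08 and edgeR adjusted p = 0.232), with R98W libraries at 32.8 to 33.1 CPM above WT libraries at 27.6 to 31.9 CPM.

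The export motor that pulls PEX5 out of the membrane had members on both sides. PEX6, an ATPase of the motor, stood at 25.0, 23.7 and 26.2 CPM in R98W and 19.2, 19.2 and 19.0 CPM in WT libraries. It was the only peroxin of the list called higher in R98W, with a log2 fold change of 0.38 (SE 0.08 and edgeR adjusted p = 0.000797). PEX26, the membrane anchor of the motor, stood at 32.1, 36.9 and 32.8 CPM in R98W and 41.0, 40.4 and 36.9 CPM in WT libraries. The highest R98W and the lowest WT library nearly met, 14.2% of its exon bases are shared with other genes, and the log2 fold change was -0.22 (SE 0.08 and edgeR adjusted p = 0.0341). The call of PEX26 was lost without R98W replicate 1 (adjusted p = 0.158), R98W replicate 3 (0.112), the library labelled WT replicate 1 (0.0734) or WT replicate 2 (0.0571). The summed level of PEX6 and PEX26 was 58.9 ± 1.73 CPM in R98W and 58.6 ± 2.33 CPM in WT (SD, n = 3 each).

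The PEX11 proteins elongate the peroxisomal membrane before division, and the gene PEX11A is known in rodent liver to respond to peroxisome proliferators. PEX11A (ENSG00000166821, hg38 chr15:89677764-89690783, minus strand) stood at 8.64, 7.25 and 6.51 CPM in R98W and 9.71, 12.2 and 10.7 CPM in WT libraries. Every R98W library was below every WT library, with means of 7.47 ± 1.08 CPM in R98W and 10.9 ± 1.26 CPM in WT (SD, n = 3 each) and a log2 fold change of -0.54 (SE 0.12 and edgeR adjusted p = 0.00153). PEX11G was the least expressed member, with 0.579 to 0.978 CPM in R98W and 1.03 to 1.19 CPM in WT libraries, and its log2 fold change of -0.52 had a 95% interval of -1.03 to -0.01 and an edgeR adjusted p of 0.105. Over the 13 peroxins, 1 was higher and 6 lower, with a median log2 fold change of -0.22. Every peroxin of the list was at or under 10 RPKM (CPM per kilobase of exon). Of all tested genes in that range, 10.3% were higher and 20.6% lower. That range also holds genes that are not protein-coding, whereas every peroxin of the list is. Of the 14427 tested protein-coding genes at any level, 2930 were higher and 3317 lower.

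**Figure D2:**
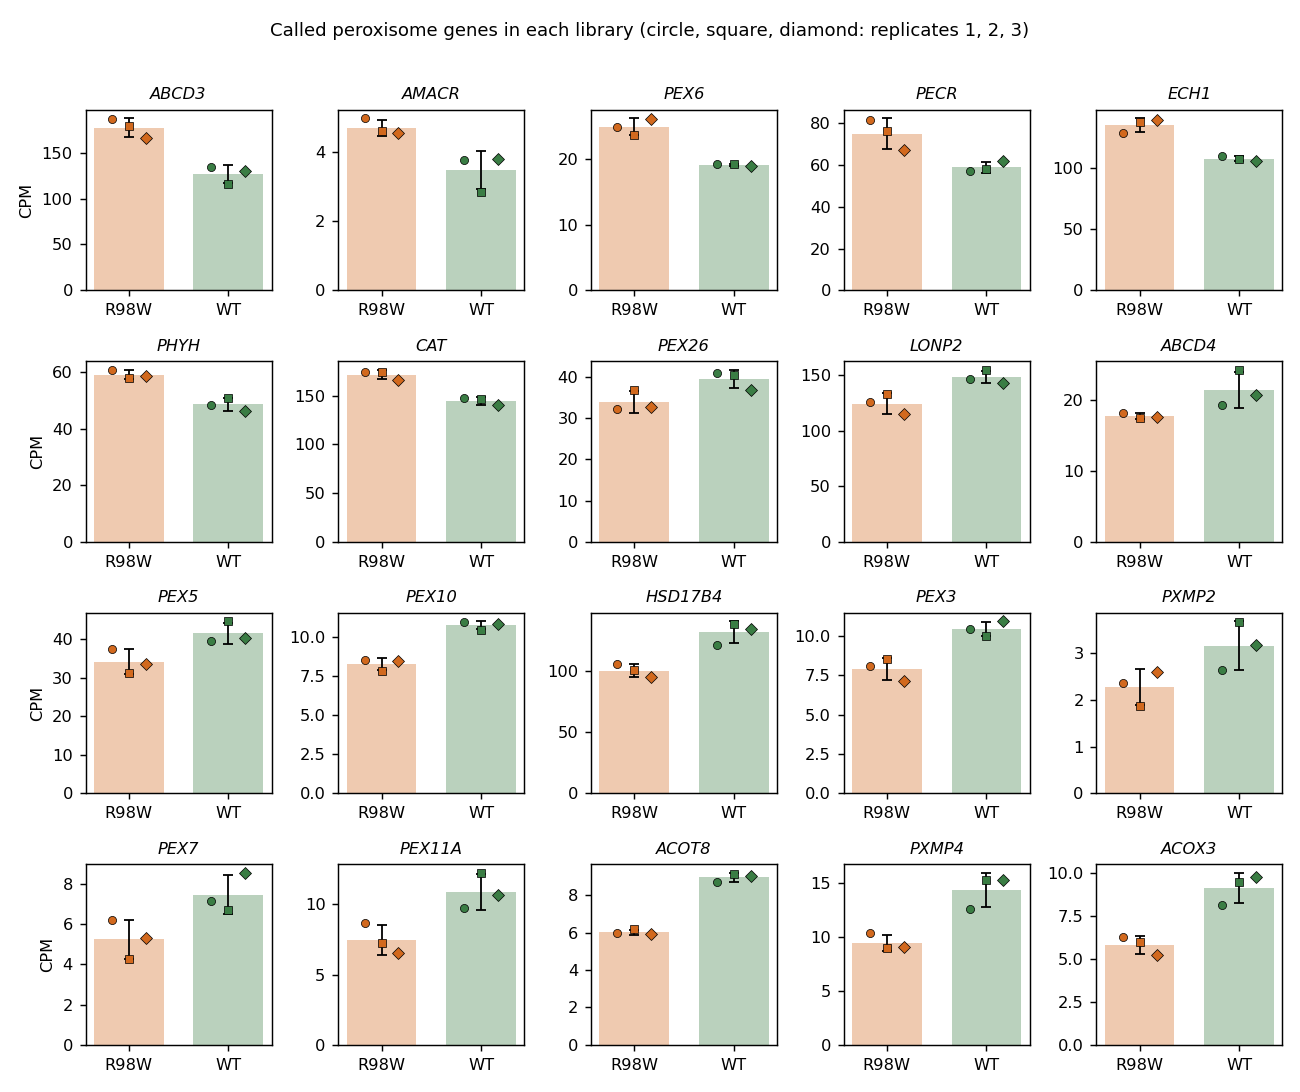
Level in CPM of each of the 20 called members in each library, R98W left of WT, with bars at the mean of 3 libraries, error bars of ± SD, and circles, squares and diamonds for replicates 1, 2 and 3. In all 20 panels the points of the groups do not overlap, and the WT circle is the WT library nearest the R98W mean in 12.

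The β-oxidation genes, 10 in number, split evenly into 3 higher, 3 lower and 4 that did not pass. ACOX3 (ENSG00000087008, hg38 chr4:8366282-8440723, minus strand), an oxidase that opens the cycle for branched acyl-CoAs, stood at 6.26, 5.97 and 5.25 CPM in R98W and 8.14, 9.48 and 9.80 CPM in WT libraries. Its groups stood well apart, averaging 5.83 ± 0.52 CPM in R98W and 9.14 ± 0.88 CPM in WT (SD, n = 3 each), and its log2 fold change of -0.65 (SE 0.12 and edgeR adjusted p = 0.000229) was the largest of the members. HSD17B4, the bifunctional enzyme that hydrates and dehydrogenates the intermediates, stood at 105.2, 100.3 and 95.0 CPM in R98W and 121, 138 and 134 CPM in WT libraries. All R98W libraries lay below all WT libraries, with a log2 fold change of -0.39 (SE 0.07 and edgeR adjusted p = 0.000224). EHHADH, the other bifunctional enzyme of the organelle, had a log2 fold change of -0.05 (SE 0.09 and edgeR adjusted p = 0.69).

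ACOT8 (ENSG00000101473, hg38 chr20:45841721-45857406, minus strand), a thioesterase that releases acyl chains from coenzyme A, stood at 5.98, 6.18 and 5.91 CPM in R98W and 8.68, 9.14 and 9.03 CPM in WT libraries. The spread within each group was small beside the gap, and the log2 fold change was -0.57 (SE 0.11 and edgeR adjusted p = 0.000301), and 35.3% of its exon bases are shared with SNX21 on the other strand. The thiolases were not called. ACAA1 had a log2 fold change of -0.07 (SE 0.08) with an edgeR adjusted p of 0.493. SCP2, the sterol carrier and thiolase for branched chains, had means of 84.5 ± 6.25 CPM in R98W and 95.5 ± 3.24 CPM in WT (SD, n = 3 each), with no overlap and a log2 fold change of -0.18 whose edgeR adjusted p was 0.056. Without WT replicate 2 the adjusted p of SCP2 was 0.0242. CROT, which hands shortened chains to carnitine, had a log2 fold change of -0.11 (SE 0.08 and edgeR adjusted p = 0.313).

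The higher β-oxidation genes were auxiliary enzymes that handle double bonds and stereochemistry. ECH1, a dienoyl-CoA isomerase, stood at 128, 137 and 139 CPM in R98W and 109.8, 107 and 105 CPM in WT libraries. It was the most abundant member per exon length, it shares 16.3% of its exon bases with another gene on its own strand, and its log2 fold change was 0.33 (SE 0.06 and edgeR adjusted p = 0.000548). PECR, an enoyl-CoA reductase, stood at 81.3, 76.0 and 67.0 CPM in R98W and 56.8, 57.7 and 61.6 CPM in WT libraries. The nearest libraries, R98W replicate 3 and WT replicate 3, still did not overlap, and the log2 fold change was 0.35 (SE 0.07 and edgeR adjusted p = 0.00115). AMACR, the racemase that turns branched chains into the form the oxidases accept, stood at 4.96, 4.59 and 4.54 CPM in R98W and 3.78, 2.85 and 3.80 CPM in WT libraries. Its log2 fold change was 0.44 (SE 0.14 and edgeR adjusted p = 0.0219). The edgeR adjusted p was 0.117 without WT replicate 2 and 0.0760 without R98W replicate 1. AMACR shares 64.8% of its exon bases with genes on its own strand, among them the readthrough gene C1QTNF3-AMACR, so its count and level are uncertain. Summed over the 10 genes, the level was 492 ± 17.3 CPM in R98W and 499.99 ± 7.96 CPM in WT (SD, n = 3 each), a difference smaller than the spread between R98W libraries.

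α-Oxidation removes a single carbon from phytanic acid, a branched fatty acid from the diet. PHYH, the hydroxylase that begins it, stood at 60.7, 57.7 and 58.7 CPM in R98W and 48.5, 50.8 and 46.4 CPM in WT libraries. Every R98W library was above every WT library, with a log2 fold change of 0.28 (SE 0.07 and edgeR adjusted p = 0.00278). HACL1, the lyase that splits the hydroxylated product, had a log2 fold change of -0.05 (SE 0.08 and edgeR adjusted p = 0.703).

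None of the 3 members in the peroxisomal start of ether lipid synthesis passed the test. These 3 were the most abundant uncalled members per exon length. DHRS7B, the reductase that follows AGPS, is not a member and was called lower, as given below. GNPAT, the acyltransferase of the opening step, had 79.0, 74.7 and 75.9 CPM in R98W and 74.1, 84.7 and 78.7 CPM in WT libraries. AGPS, which makes the ether bond, had 166, 167 and 154 CPM in R98W and 161, 135 and 156 CPM in WT libraries. FAR1, which supplies the fatty alcohol, had 147, 139.7 and 131 CPM in R98W and 129.8, 107 and 132 CPM in WT libraries. In all 3 genes the libraries of the groups overlapped, and in AGPS and FAR1 the low library was WT replicate 2. The 95% intervals of the log2 fold change were -0.19 to 0.09 for GNPAT, -0.04 to 0.26 for AGPS and 0.02 to 0.34 for FAR1, whose edgeR adjusted p was 0.0821.

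The membrane transporters and channels held the member with the smallest p. ABCD3 (ENSG00000117528, hg38 chr1:94418455-94518666, plus strand), also called PMP70, is the half-transporter that brings branched and dicarboxylic acyl-CoAs into the organelle and a usual protein marker of the peroxisomal membrane. It stood at 186, 179 and 166 CPM in R98W replicates 1 to 3, against 134, 116 and 129.9 CPM in WT replicates 1 to 3. The groups were far apart, averaging 177 ± 10.1 CPM in R98W and 127 ± 9.55 CPM in WT (SD, n = 3 each), with a log2 fold change of 0.48 (SE 0.07 and edgeR adjusted p = 3.4e-05). PXMP4 (ENSG00000101417, hg38 chr20:33702754-33720319, minus strand), a small membrane protein, moved the other way, with 10.3, 8.94 and 9.08 CPM in R98W and 12.5, 15.3 and 15.2 CPM in WT libraries. Its log2 fold change was -0.60 (SE 0.10 and edgeR adjusted p = 0.000159), and its WT replicate 1 lay nearest the R98W libraries.

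PXMP2, a channel for small solutes known from mouse peroxisomes, stood at 2.36, 1.86 and 2.60 CPM in R98W and 2.63, 3.67 and 3.16 CPM in WT libraries. R98W replicate 3 and WT replicate 1 nearly met, and 29.1% of its exon bases are shared with another gene on its own strand. The log2 fold change was -0.47 (SE 0.17 and edgeR adjusted p = 0.0375), and the call was lost without WT replicate 2 (adjusted p = 0.154), WT replicate 3 (0.0889), R98W replicate 1 (0.0646) or R98W replicate 2 (0.178). ABCD4, a relative of ABCD3 that is known to act in cobalamin export from lysosomes, stood at 18.1, 17.4 and 17.5 CPM in R98W and 19.3, 24.1 and 20.7 CPM in WT libraries. WT replicate 2 was the high library, and the log2 fold change of -0.27 (SE 0.09 and edgeR adjusted p = 0.0231) had an adjusted p of 0.122 without it, 0.0801 without R98W replicate 2 and 0.0653 without R98W replicate 3. SLC25A17, a carrier of cofactors, had a log2 fold change of -0.03 (SE 0.08 and edgeR adjusted p = 0.815). The summed level of the 5 genes, most of it ABCD3, was 235 ± 11.8 CPM in R98W and 195 ± 4.81 CPM in WT (SD, n = 3 each).

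CAT and LONP2 moved in opposite directions. CAT (ENSG00000121691, hg38 chr11:34438925-34472062, plus strand), the catalase that breaks down hydrogen peroxide, stood at 175, 174 and 166 CPM in R98W and 148, 147 and 140.0 CPM in WT libraries. All R98W libraries were above all WT libraries, with a log2 fold change of 0.24 (SE 0.06 and edgeR adjusted p = 0.00491). After a correction of each library for its trend with expression level, CAT had a log2 fold change of 0.10 and an edgeR adjusted p of 0.222. Across the alternatives tried its adjusted p ran from 0.000344 to 0.726. The highest came from the test against a fold of 1.2, which asks for more than a change from 0. LONP2, the protease of the matrix, stood at 126, 133 and 115 CPM in R98W and 147, 155 and 143 CPM in WT libraries. Its log2 fold change was -0.25 (SE 0.07 and edgeR adjusted p = 0.00762), with an adjusted p of 0.0527 without R98W replicate 3, and 21.0% of its exon bases are shared with genes on the other strand.

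Levels can be compared between genes only per length, as RPKM, CPM divided by exon length in kilobases. On that scale the mean level over all 6 libraries ran over the members as 49.1 RPKM for ECH1, 44.1 for CAT, 23.9 for GNPAT, 21.0 for PECR and 20.0 for ABCD3 at the top, and as 1.78 for ACOT8, 0.845 for AMACR and 0.652 for PEX11G at the bottom. Of these genes, ECH1, ACOT8 and AMACR share 16.3%, 35.3% and 64.8% of their exon bases with other genes, so their levels per length are less certain. Among the peroxins, PEX13 was highest at a mean level of 9.10 RPKM, so no peroxin of the list was over 10 RPKM. The direction of change went with the level. Of the 11 members over 10 RPKM, 5 were higher and 2 lower, with a median log2 fold change of 0.18, and of the 24 at or under it, 2 were higher and 11 lower, with a median of -0.19. The same split over all tested genes gave 39.0% higher and 10.6% lower with a median log2 fold change of 0.13 over 10 RPKM, and 10.3% higher and 20.6% lower with a median of -0.07 at or under it. The limit of 10 RPKM was chosen after these values were seen, and the part of expression level in the members' changes was not tested beyond the correction given for CAT and in the closing part.

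**Figure D3:**
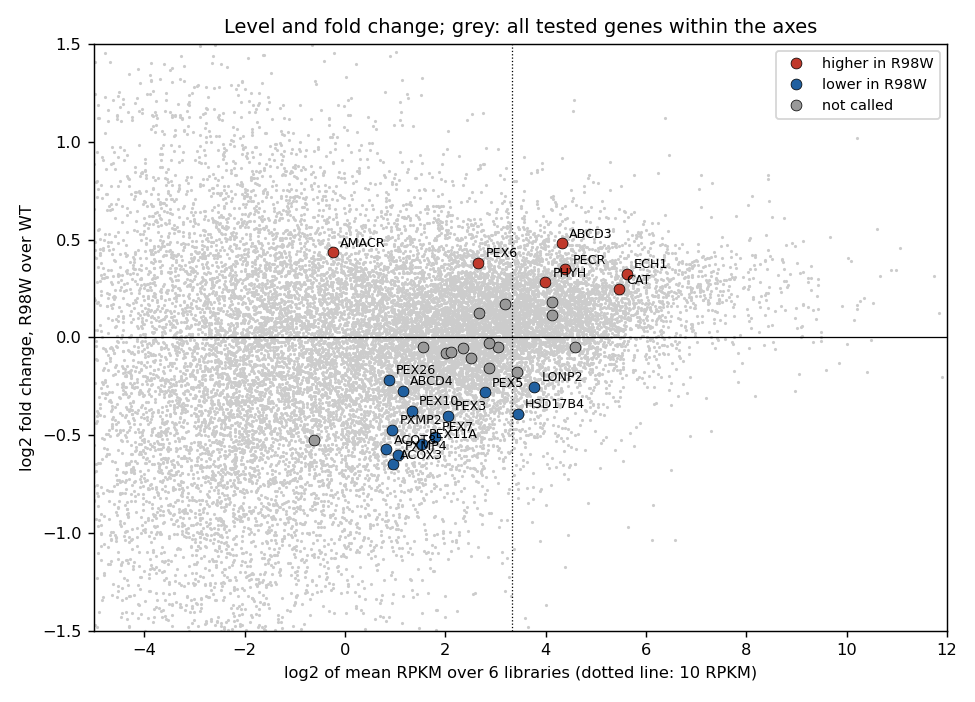
Log2 fold change of R98W over WT against log2 of the mean level in RPKM over 6 libraries, with tested genes within the axes as small grey dots, higher members red, lower members blue and uncalled members grey circles. Members over 10 RPKM had a median log2 fold change of 0.18 and the others one of -0.19, and the cloud of all genes tilts the same way.

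**Figure D4:**
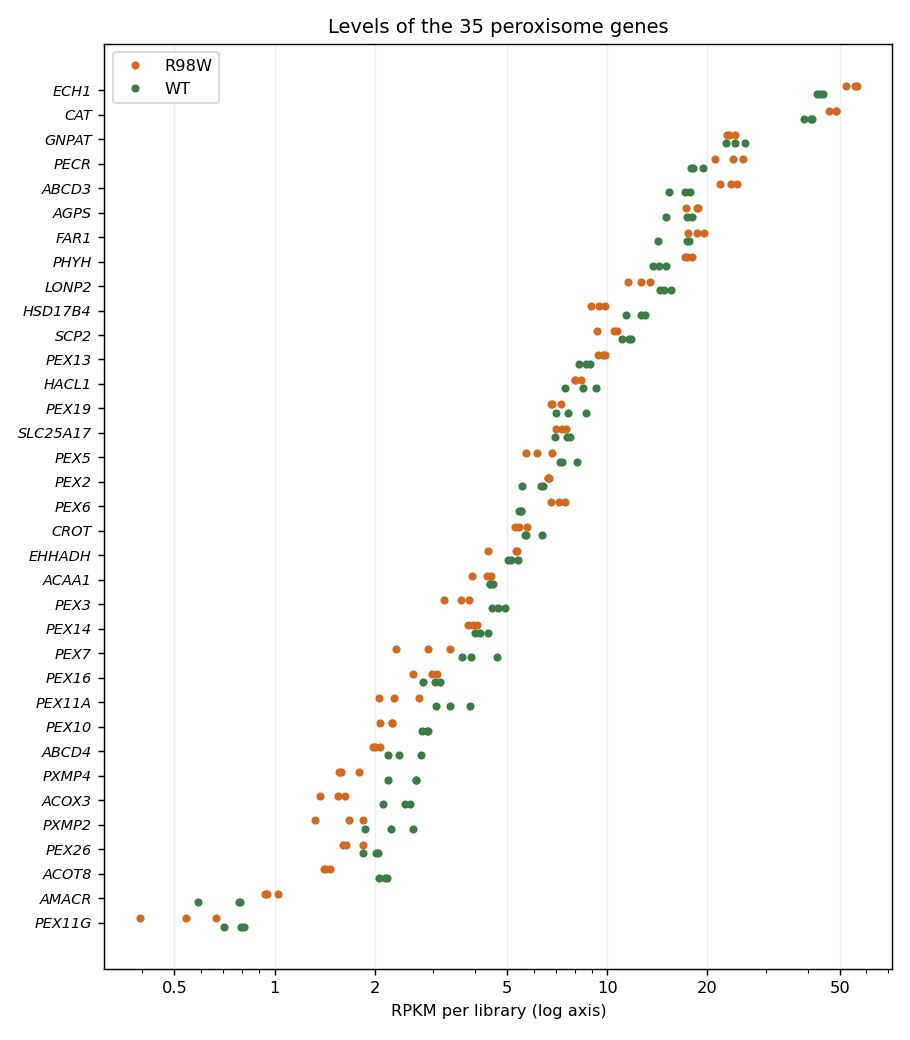
Level per exon length of each member in RPKM (log axis), with each library as a point, R98W above WT in each row. ECH1 and CAT lead and PEX11G is last, and for most members the distance between the groups is small beside the distance between genes.

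Sequence features that the list did not use were read from the RefSeq promoters on GRCh38.p14, which matched 30 of the 35 members. Missing were PEX14, PEX2, ACAA1, EHHADH and ECH1. Motifs were searched on both strands as exact letters in 250 bases before to 50 after the start, and matches to one motif may overlap those to another. The direct repeat of AGGTCA with a single base between the copies, bound by PPAR with RXR, was in 0 of 30 member promoters and in 0.0236% of the 12688 promoters of tested genes, and AGGTCA alone was in 3 of 30, or 10.0%, and in 10.3%. The E-box CACGTG was in 3 of 30 and in 9.73%, the palindromic NRF1 motif in 1 of 30 and in 2.15%, and the SP1 motif GGGCGG in 20 of 30 and in 67.1%. The ETS core CCGGAAG was in 10 of 30 member promoters, or 33.3%, and in 17.3% of tested promoters, and it was in 1 of the 6 higher and 6 of the 13 lower members with a promoter. CCAAT was in 14 of 30, or 46.7%, against 36.0%, in 3 of the 6 higher and 5 of the 13 lower members. Promoters with 3 or more CCAAT, an amount looked at after the values were seen, were 4 of 30 members, or 13.3%, namely the 4 printed above, and 598 of the tested genes, or 4.71%. Promoter GC content had a median of 63.8% over members, 67.2% over the higher and 61.0% over the lower ones, and 65.0% over tested genes. These matches describe letters in a window and are not binding sites.

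Several members share a start region with a gene transcribed the other way, which was looked at after the values were seen. A tested protein-coding neighbour began within 1000 bases of 9 members, and 4 of these neighbours were called, all lower in R98W. Among all 14427 tested protein-coding genes, 43.3% were called in either direction, and 3317 were called lower. Whether the 4 lower neighbours among 9 exceed that share of lower genes was not tested. ZSWIM3, beside ACOT8, had 0.475 ± 0.16 CPM in R98W and 2.03 ± 0.31 CPM in WT (SD, n = 3 each), with a log2 fold change of -2.09 (SE 0.25 and edgeR adjusted p = 3.6e-06). ECHDC2, beside SCP2, had 5.53 ± 0.59 CPM in R98W and 9.95 ± 0.05 CPM in WT, with a log2 fold change of -0.85 (SE 0.11 and edgeR adjusted p = 9.51e-06). POLE, beside PXMP2, had a log2 fold change of -0.30 (edgeR adjusted p = 0.00129), and MAP3K13, beside EHHADH, one of -0.43 (edgeR adjusted p = 0.00123). ACOT8 and PXMP2 were themselves called lower, while SCP2 and EHHADH did not pass. The uncalled neighbours ADAT2, DFFA, BTD, C1orf131 and NFE2L2 had log2 fold changes of 0.18, 0.04, -0.18, -0.10 and 0.17 beside PEX3, PEX14, HACL1, GNPAT and AGPS.

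The library labelled WT replicate 1 lay nearer the R98W mean than the other WT libraries in 12 of the 20 called members, or 60%, with WT replicates 2 and 3 nearest in 4 each. Over all called genes the shares were 57.0%, 22.1% and 20.8% for WT replicates 1, 2 and 3. Without the library labelled WT replicate 1, 7 members were higher and 13 lower, as with it, PEX26 having lost its call and PEX19 gained one. The median log2 fold change of the members was then -0.14.

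Other genes of peroxisome biology and of the pathways around it were counted in 7 lists. These lists were written from textbook knowledge, but with earlier results of these data known, so their counts are not an independent check. Over their 112 distinct genes, 104 were tested, 24 were higher and 25 lower, or 47.1% called, where 34.8% of all tested genes and 43.3% of protein-coding ones were called. The number called was 50 without the library labelled WT replicate 1 and 40 after the correction for expression level. Of 37 other peroxisomal proteins, 33 were tested, 8 were higher and 10 lower, with a median log2 fold change of -0.07, and ABCD2, DAO, DDO and AGXT fell under the filter. DHRS7B, the reductase that follows AGPS in ether lipid synthesis, had 6.83 ± 0.69 CPM in R98W and 12.8 ± 1.14 CPM in WT (SD, n = 3 each), with a log2 fold change of -0.91 (SE 0.11 and edgeR adjusted p = 3.41e-06). SLC27A2, a very-long-chain acyl-CoA synthetase whose gene overlaps ATP8B4, had 51.7 ± 5.36 CPM in R98W and 76.2 ± 3.02 CPM in WT, with a log2 fold change of -0.56 (edgeR adjusted p = 1.28e-05). IDH1, the isocitrate dehydrogenase of cytosol and peroxisome that overlaps IDH1-AS1, had 713 ± 21.6 CPM in R98W and 525 ± 26.4 CPM in WT, with a log2 fold change of 0.44 (edgeR adjusted p = 2.44e-05). The changes of DHRS7B and SLC27A2 were as large as or larger than those of most called members. Both genes were named for their small p, so the size of their changes does not stand for the list, whose median was -0.07.

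Of 10 genes of the division machinery shared with mitochondria and of the tethers to the endoplasmic reticulum, 2 were higher and 1 lower, with a median log2 fold change of 0.05. GDAP1, a fission factor overlapping JPH1, was lower by a log2 fold change of -0.68 (edgeR adjusted p = 1.56e-06), and VAPA, a tether, and MFF, a receptor for the division dynamin, were higher at 0.22 and 0.20 (adjusted p = 0.0117 and 0.0244). The count of higher genes in this list was 1 without the library labelled WT replicate 1, without WT replicate 3 or without R98W replicate 1, and 0 without R98W replicate 2, and the count of lower genes was 2 without R98W replicate 1 or with the filter of 50 counts in 3 libraries. After the correction for expression level or for GC content, 0 genes of this list were higher, VAPA and MFF included. Of 11 plasmalogen genes that act in the endoplasmic reticulum, 4 were higher and 4 lower, with a median of -0.04. AGPAT3, an acyltransferase, fell with a log2 fold change of -0.52 (edgeR adjusted p = 1.36e-05), and PLPP1, a lipid phosphatase, and PEDS1, the desaturase that makes plasmalogens, rose with 0.45 and 0.37 (adjusted p = 8.21e-05 and 0.00227). PEDS1 shares exons with the readthrough gene PEDS1-UBE2V1 on its own strand. Without R98W replicate 1, and likewise after the GC correction, 2 of the plasmalogen genes were lower.

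The removal of peroxisomes by autophagy, called pexophagy, was counted in 10 genes, of which 3 were higher and 1 lower, with a median log2 fold change of 0.15. USP30, a deubiquitinase that counters the removal of mitochondria and peroxisomes, had 4.73 ± 0.45 CPM in R98W and 12.7 ± 1.29 CPM in WT (SD, n = 3 each), with a log2 fold change of -1.43 (SE 0.12 and edgeR adjusted p = 2.91e-08), the largest among the named genes of the 7 lists. USP30 overlaps USP30-AS1 on the other strand, so reads of the pair cannot be told apart. TAX1BP1, an autophagy receptor, and STUB1, a ubiquitin ligase, were higher, with log2 fold changes of 0.30 and 0.32 (edgeR adjusted p = 0.00232 and 0.0176). Without WT replicate 2 or WT replicate 3, and likewise after the level correction, 1 pexophagy gene was higher, and after the correction for exon length 5 were.

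The PPAR receptors switch on peroxisomal genes in rodent liver. Of 12 PPAR factors and partners, 0 were higher and 3 lower, with a median log2 fold change of -0.05. That is 25% called, where 34.8% of all tested genes and 43.3% of protein-coding ones were called. The lower ones were the coactivators NCOA1 at -0.31 (edgeR adjusted p = 0.00224) and MED1 at -0.22 (0.0222), and the receptor PPARD at -0.38 (0.00445). Of 20 PPAR-responsive genes outside the peroxisome, 16 were tested, 4 were higher and 2 lower, with a median log2 fold change of 0.04. ANGPTL4, a secreted inhibitor of lipoprotein lipase, had 18.4 ± 2.28 CPM in R98W and 8.53 ± 0.86 CPM in WT (SD, n = 3 each), with a log2 fold change of 1.11 (SE 0.11 and edgeR adjusted p = 2.61e-07). PDK4, a kinase that restrains pyruvate dehydrogenase, had 164 ± 28.0 CPM in R98W and 254 ± 16.0 CPM in WT, with a log2 fold change of -0.63 (edgeR adjusted p = 3.41e-05). ACOT1, a cytosolic thioesterase, had a log2 fold change of 0.40 (edgeR adjusted p = 0.000558) and is uncertain because of its near copy ACOT2. Without WT replicate 2, with DESeq2 or its size factors, or after the GC or length correction, 1 PPAR factor was higher, and without R98W replicate 1, 1 PPAR-responsive gene was lower.

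Mitochondrial β-oxidation takes over the chains that peroxisomes have shortened, and of its 19 genes 4 were higher and 4 lower, with a median log2 fold change of 0.01. DECR1, the mitochondrial dienoyl-CoA reductase, had 24.5 ± 1.92 CPM in R98W and 42.5 ± 4.23 CPM in WT (SD, n = 3 each), with a log2 fold change of -0.80 (edgeR adjusted p = 8.67e-07). ECI1, the mitochondrial enoyl-CoA isomerase, was higher, with a log2 fold change of 0.54 (edgeR adjusted p = 6.54e-05). ETFA, which passes electrons from the dehydrogenases to the respiratory chain, was higher with a log2 fold change of 0.36 (edgeR adjusted p = 0.000213). Without WT replicate 3, and likewise after the level correction, 2 genes of this list were higher.

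**Figure D5:**
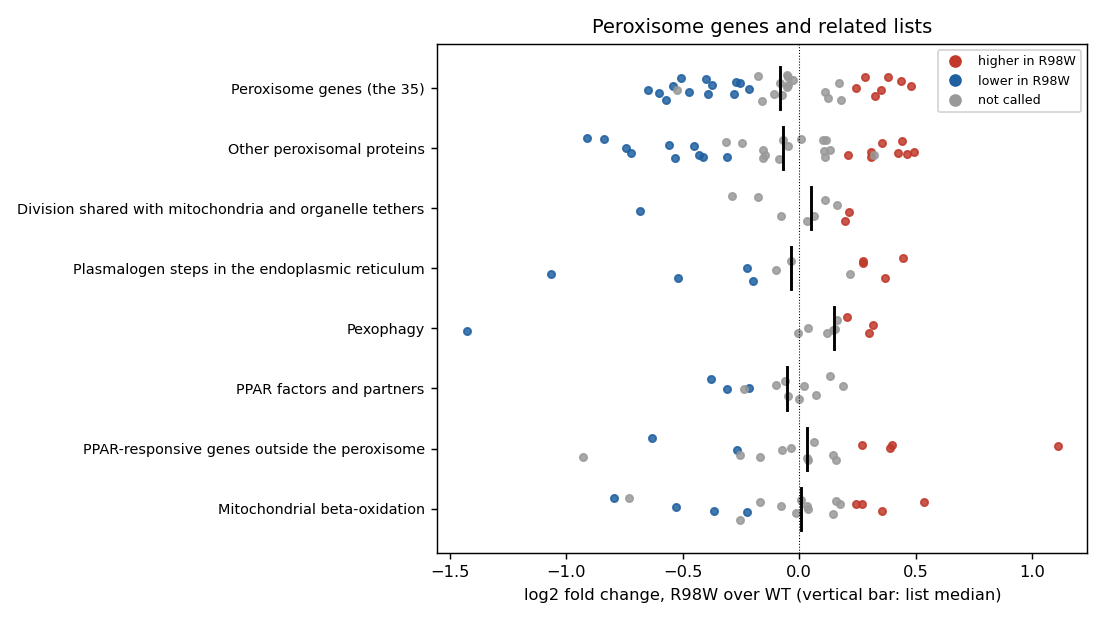
Log2 fold change of R98W over WT for the tested genes of the 7 pathway lists and the 35 members, with a vertical bar at each list's median. Genes called higher are red and genes called lower blue. The medians of the 7 lists run from -0.07 to 0.15, and every list but the PPAR factors has called genes on both sides of 0. Under some alternatives a PPAR factor was also called higher.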

How the data were processed

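RNA from 3 R98W and 3 WT libraries of A549 cells was read from the deposited table of raw counts per gene, whole numbers with no normalisation. Per the submitters' processing notes, HISAT2 2.1.0, HTSeq 0.11.3, CASAVA 1.8 and the build hg38 were used, in roles not stated. No source used here gives the annotation or strand setting of the counting. Groups and replicate numbers came from the titles. All 58721 rows matched GENCODE release 29 by identifier, which gave positions, exon lengths and overlaps on hg38. Totals ran from 90007121 to 110152936 counts, and single member counts from 56 to 18266, so counting error matters most for PEX11G.

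The 6 libraries were fitted with edgeR 4.0.16 in R 4.3.3 without covariates, after filterByExpr (minimum count 10, minimum total 15) and TMM scaling. The quasi-likelihood test with Benjamini-Hochberg adjustment over all 20713 tested genes called a gene at an adjusted p under 0.05. The biological coefficient of variation was 10.0%. SEs come from the test statistic. RPKM is TMM-scaled CPM divided by the union of exon lengths. The code was tested on simulated data. Alternatives were other scalings, filters, thresholds, a fold test, each library left out, a replicate block, limma-voom 3.58.1, DESeq2 1.42.0, and per-library loess corrections (span 0.3, log2 CPM with a prior count of 2) for expression level, GC content and exon length.

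The members, their roles and the pathway lists were chosen with earlier results of these data known. Values in every library are printed for each called member and for the 3 uncalled members with the highest mean RPKM, and each pathway list has its 3 called genes with the smallest p named. Called members for which no share of exon bases is given share 7.97% or less. Of the uncalled members, ACAA1, SCP2, PEX19 and HACL1 share 21.2%, 20.7%, 16.3% and 15.4% with other genes, and the others 6.81% or less.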

Additional observations from a re-analysis of the deposited data

How the results depend on the processing

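Of the 20 called members, ABCD3, ACOX3, ACOT8, PXMP4 and PEX11A kept their call under all 19 alternatives, and 12 did so outside the stricter threshold and the fold test. Against a fold of 1.2, 1 member was higher and 4 lower, and 884 and 1982 of all genes. At a threshold of 0.01, 6 members were higher and 9 lower, and 2143 and 2620 of all genes. The members' median log2 fold change ran from -0.136862 to -0.0794327 over the libraries left out, the lowest without WT replicate 1. Members higher and lower numbered 8 and 13 with DESeq2, 7 and 13 with limma-voom, 6 and 13 after the level correction, 7 and 13 after the GC correction and 9 and 14 after the length correction. CAT and PXMP2 lost their calls after the level correction (adjusted p = 0.222 and 0.115), and PXMP2 after the GC correction (0.0711). SCP2 passed under 6 alternatives, PEX13 under 3 and FAR1 and PEX19 under 1 each. Among uncalled members, the log2 fold change over the libraries left out ran from -0.14 to 0.0177 for HACL1, -0.11 to 0.0183 for PEX16, -0.10 to 0.0395 for EHHADH and -0.0838 to 0.000349 for SLC25A17. PEX16 turned to 0.0365 and AGPS to -0.0315 after the level correction, and PEX16 to 0.0033 after the GC correction. The cause was not tested. Same-numbered R98W and WT libraries did not deviate together (correlations of 0.0056, -0.039 and -0.037), nor did every library correlate best with its own number. With the replicate block, 7 members were higher and 13 lower, and 3205 and 3678 of all genes. At this depth the uncalled members' 95% intervals ran from -1.03 to 0.34.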
